A study of Mus musculus with 21 samples.

Results

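Eomes, Mesp1, Mesp2, Mixl1 and Tbx6 are 5 of the 21887 protein-coding genes in the RefSeq table used here, and all 5 encode transcription factors of early mesoderm. They were chosen by name, and every peak inside the gene body or within 50 kb of it was taken from the ChIP, input and ATAC peak lists. This gave 34 of 51264 ATAC regions and 1 of 4548 ChIP regions, where a region is a set of overlapping peaks of an assay merged over the libraries. All positions are on GRCm38 (mm10), and distances run to the nearer boundary of the gene.

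All samples came from the A2lox-Sox7-Myc mouse embryonic stem cell line, an E14Tg2a derivative in which doxycycline switches on Myc-tagged Sox7, a SOX-family transcription factor. They were differentiated as embryoid bodies, cell aggregates in which mesoderm forms, and harvested at day 4. The series asked where Sox7 binds and how it alters open chromatin in progenitors of the heart and of the endothelium. ATAC-seq, which marks open chromatin by transposase insertion, was done on sorted cells, and anti-Myc ChIP-seq on unsorted cells. The ATAC groups were induced CPC (PDGFRα+FLK1+ cells after 1 µg/ml doxycycline for 24 h), uninduced CPC, induced EPC (PDGFRα−FLK1+ cells after the same dose and time) and uninduced EPC, with 2 libraries each. The ChIP groups were 4 induced lists (1 µg/ml doxycycline for 24 h) and 4 uninduced lists, with 1 input list from uninduced cells. Uninduced ChIP lists 2 and 4 had 585 peak starts in common, 75.8% of the 772 in list 4, and were counted as 1 library. Uninduced cells received no doxycycline and carried the same transgene, so every library came from the same engineered line.

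Eomes is a T-box factor of the primitive streak that starts the mesoderm and endoderm programmes, and in the mouse it activates Mesp1. Mesp1 and Mesp2 are neighbouring basic helix-loop-helix genes: Mesp1 marks the earliest cardiovascular mesoderm, and Mesp2 sets segment borders in the presomitic mesoderm. Mixl1 is a homeodomain factor of the streak needed for definitive endoderm, and Tbx6 is a T-box factor needed for paraxial mesoderm, where it activates Mesp2.

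The promoters of 4 of these genes matched the RefSeq promoter table (GRCm38.p6), each from 250 bases before to 50 bases after the start of the gene. They are printed because the genes differed in how often the ATAC lists had a peak over these bases. Lower case is used throughout, and capitals mark a match, on either strand, to TCACACC (a T-box motif), TCAAAG (TCF/LEF) or AATNNACA (Foxh1).
Eomes (chr9:118477939-118478238, plus strand): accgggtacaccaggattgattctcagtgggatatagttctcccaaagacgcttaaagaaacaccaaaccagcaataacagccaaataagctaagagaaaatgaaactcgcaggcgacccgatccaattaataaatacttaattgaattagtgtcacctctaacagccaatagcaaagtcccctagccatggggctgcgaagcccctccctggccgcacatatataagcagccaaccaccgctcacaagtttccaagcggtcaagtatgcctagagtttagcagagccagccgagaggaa
Mesp1 (chr7:79793541-79793840, minus strand): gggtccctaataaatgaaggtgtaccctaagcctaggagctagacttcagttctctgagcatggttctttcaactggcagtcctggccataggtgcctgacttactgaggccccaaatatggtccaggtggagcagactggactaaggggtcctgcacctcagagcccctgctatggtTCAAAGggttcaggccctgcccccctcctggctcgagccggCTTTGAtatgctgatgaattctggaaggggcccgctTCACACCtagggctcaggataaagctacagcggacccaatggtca
Mesp2 (chr7:79810477-79810776, plus strand): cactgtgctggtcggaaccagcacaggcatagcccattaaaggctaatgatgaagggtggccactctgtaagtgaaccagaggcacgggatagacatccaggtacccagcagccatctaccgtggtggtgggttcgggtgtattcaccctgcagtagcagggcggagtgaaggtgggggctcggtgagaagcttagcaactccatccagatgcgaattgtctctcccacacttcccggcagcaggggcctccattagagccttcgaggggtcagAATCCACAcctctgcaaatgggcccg
Tbx6 (chr7:126781233-126781532, plus strand): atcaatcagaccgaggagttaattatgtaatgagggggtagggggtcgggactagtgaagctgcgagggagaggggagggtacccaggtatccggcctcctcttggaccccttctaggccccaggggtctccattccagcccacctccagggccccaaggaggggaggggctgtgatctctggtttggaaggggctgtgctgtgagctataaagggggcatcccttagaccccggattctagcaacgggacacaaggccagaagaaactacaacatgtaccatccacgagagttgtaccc

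A peak covered part of the printed Eomes bases in 6 of 8 ATAC libraries, the exceptions being both uninduced CPC libraries. The printed Tbx6 bases had a peak in 4 libraries, which were induced CPC 2, induced EPC 2 and both uninduced EPC libraries. The printed Mesp2 bases had a peak in induced CPC 1 alone, and the printed Mesp1 bases in 0 of 8. Over all 21238 promoters of the table, 41.0% had a peak in all 8 libraries and 41.2% in none, so a promoter with peaks in some libraries only, as at Eomes, Tbx6 and Mesp2, was the less common state.

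Of the motifs searched on both strands, the Mesp1 bases held TCAAAG at 72 bases before the gene start and again, on the other strand as CTTTGA, at 31 bases before it. They also held TCACACC just after the start. The Mesp2 bases held AATCCACA after the start. Among all promoters of the table, 14.4% held TCAAAG or its reverse complement, 3.68% held TCACACC and 10.4% held AATNNACA. The E-box CANNTG, found in 69.0% of promoters and left in lower case here, occurred at 2 places in Mesp1 and 2 in Mesp2 and at none in Eomes or Tbx6. AACAAT, a SOX motif present in 9.05% of promoters, had no match in these 4 windows. The same held for the motif of the GATA factors, AGATAA, present in 9.65%.

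Open chromatin was unevenly spread over the genes. The Eomes window held 12 ATAC regions, more than in 93.1% of protein-coding genes, and the Tbx6 window held 10, more than in 87.6%. The Mesp2 window held 8, the Mesp1 window 7 and the Mixl1 window 3, against a median of 4 over all genes (quartiles 2 and 7). Mesp1 and Mesp2 lie 17136 bp apart, so 6 of the 9 regions near either gene lie in both windows. The 10 regions around Tbx6 stand in a gene-dense stretch into which 7 other protein-coding genes reach, and 4 of them lay over the promoter of another gene and none had Tbx6 as its assigned gene. Around Eomes, 7 of 12 regions had Eomes as their assigned gene (the gene they overlap, or else the nearest).

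The regions near the genes were about as constant over the libraries as those elsewhere. Of the 34 regions, 8 were present in all 8 libraries (23.5%, against 25.6% of all ATAC regions) and 7 in 1 library (20.6%, against 26.7%). Of the 8 constant regions, 6 lay around Tbx6, 1 near Eomes and 1 near Mixl1, and Mesp1 and Mesp2 had none. The score of a peak is the value of the authors' peak caller, in a format that gives the peak's p-value as minus 10 times its log10, and the ATAC lists start at a score of about 50. Of 162 ATAC peaks near the genes, 68 scored below 100 (42.0%, against 36.7% of all ATAC peaks). At the 50 kb limit, the outermost region inside was 48.9 kb from Mesp1, with scores of 55.1 and 59.9 in 2 libraries. The nearest region outside was 51.1 kb from Mixl1, with scores of 97.4 to 278 in 8 libraries.

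Whole-series facts that bear on these counts are few. ATAC lists held 27979 and 29291 peaks in induced CPC, 23068 and 27540 in uninduced CPC, 28915 and 30732 in induced EPC, and 23694 and 27934 in uninduced EPC. The ChIP lists held 772 to 2807 peaks and the input list 689. Read counts are not in the lists, so the depth is unknown and an absent peak can reflect a shallower library. Peak numbers near the sorting receptor genes did not separate the sorts: Pdgfra had 2 to 3 ATAC peaks in CPC and 1 to 3 in EPC, and Kdr, which encodes FLK1, had 2 to 4 in CPC and 3 to 5 in EPC. Peaks near 6 endothelial marker genes summed to 12 to 26 in CPC libraries and 26 to 39 in EPC libraries. Of these genes only Fli1 had ranges apart (0 to 2 in CPC, 4 to 10 in EPC). Pecam1 had 3 to 5 in CPC and 2 to 5 in EPC. Sums near 4 blood genes were 19 to 25 in CPC and 28 to 34 in EPC. Of the blood genes, Spi1 (4 to 5 in CPC, 6 to 8 in EPC) and Ikzf1 (5 to 8 in CPC, 9 to 11 in EPC) had ranges apart, and Tal1 and Gata1 did not. Sums near 6 cardiac genes overlapped, with 25 to 36 in CPC and 25 to 32 in EPC. Among the cardiac genes only Mef2c had ranges apart, and it was higher in EPC (4 to 5 in CPC, 6 to 9 in EPC).

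The clearest difference lay beside Mesp1, where 2 regions had peaks in both induced CPC lists and in neither uninduced CPC list. A region is called gained here when both induced libraries of a cell type have a peak and neither uninduced library does, and lost when the reverse holds. Gains in CPC made up 5.75% of all ATAC regions and 3 of the 34 near the 5 genes (8.82%). The region at chr7:79788977-79790201, 2.04 kb downstream of Mesp1, had scores of 118 and 195 in induced CPC and no peak in uninduced CPC, induced EPC or uninduced EPC. The region at chr7:79798360-79799516, 4.77 kb upstream of Mesp1, scored 170.14 and 100.23 in induced CPC and had no peak in uninduced CPC. In EPC this upstream region scored 69.6 and 58.7 in both induced libraries and 67.6 in uninduced EPC 2. The downstream region thus appeared in induced CPC alone, while the upstream region was also found in 3 of 4 EPC libraries.

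Another region, chr7:79796820-79798036, lay 3.23 kb upstream of Mesp1, between the gene and the upstream gained region. It scored 319 and 214 in induced CPC and 238 and 99.1 in uninduced CPC. In EPC it had a peak in uninduced EPC 1 alone, at 56.3, and none in induced EPC. It was therefore open in all 4 CPC libraries and in 1 of 4 EPC libraries. Both gained regions fall in the authors' deposited list of intervals found in CPC with doxycycline only, which holds 3093 intervals, 3 of them near the 5 genes. The deposited doxycycline-only intervals near these genes, for CPC here and for EPC below, carry the scores of induced replicate 1 of that cell type. They come from the same peaks and are no independent support for the calls.

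Mesp2, the neighbour, had little open chromatin of its own. The only region over its promoter, chr7:79810325-79811182, had a peak in induced CPC 1 alone, at a score of 73.6. The 3 regions beside Mesp1 lie 11.2 to 20.5 kb upstream of Mesp2 and count in its window too.

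**Figure D1:**
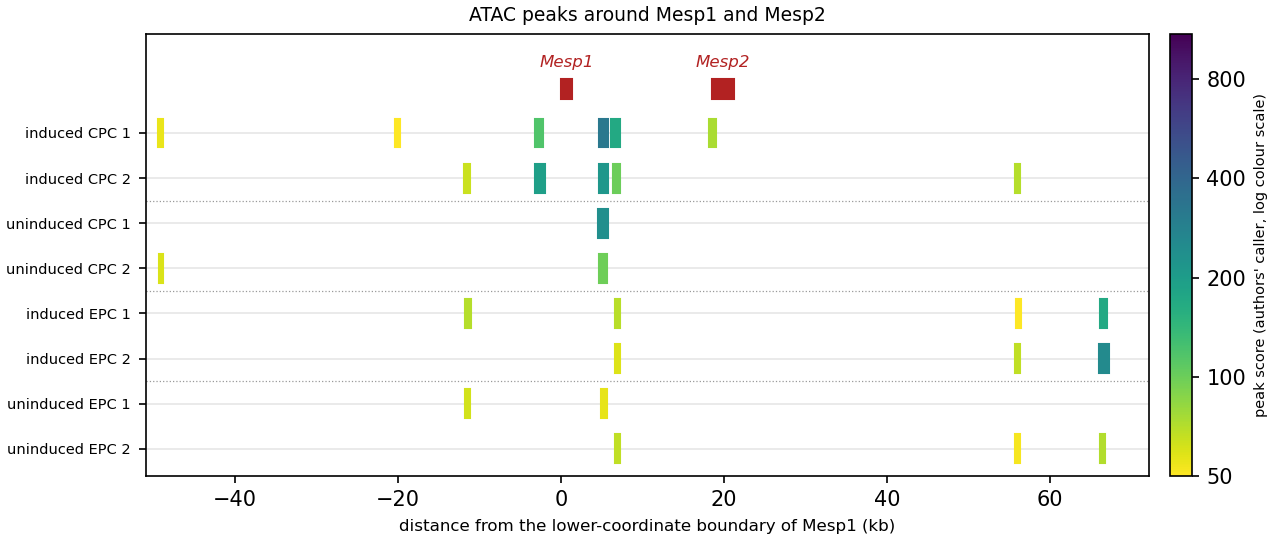
ATAC peaks around Mesp1 and Mesp2. Each line is a library, each block a peak with its true width, the horizontal axis is distance in kb from the lower-coordinate boundary of Mesp1, and colour gives the score of the peak on a log scale. The peak just left of Mesp1, with scores of 118 and 195, is seen in the 2 induced CPC libraries and in no other.

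As a number of peaks per window, Mesp1 had 6 and 4 in induced CPC, 1 and 2 in uninduced CPC, 2 and 1 in induced EPC, and 2 and 1 in uninduced EPC. Induced CPC stood above the other 3 groups, which overlapped each other. Mesp2 had 5 and 5 in induced CPC, 1 and 1 in uninduced CPC, 4 and 3 in induced EPC, and 2 and 3 in uninduced EPC. For Mesp2 the induced CPC libraries were the highest and the uninduced CPC libraries the lowest.

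In CPC the induced mean exceeded the uninduced mean by 3.5 peaks at Mesp1, a difference that 0.797% of 19564 genes reached, and by 4 at Mesp2, reached by 0.332%. The 2 windows share most of their regions, so these are not separate observations. Over both cell types, the difference was 1.75 peaks at Mesp1 (3.25 ± 2.22 in induced and 1.5 ± 0.577 in uninduced ones, SD, n = 4 each, exact permutation p = 0.278). At Mesp2 it was 2.5 peaks (4.25 ± 0.957 in induced and 1.75 ± 0.957 in uninduced ones, SD, n = 4 each, exact permutation p = 0.111). After Benjamini-Hochberg adjustment over 19564 genes, both exact permutation p-values were 1. With lists of equal length the difference was 1 peak at Mesp1 and 1.5 at Mesp2, and within 10 kb it was 1 at Mesp1 and 0.25 at Mesp2.

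The difference between the cell types was tested as the induced minus uninduced difference in CPC minus the same difference in EPC. For Mesp2 it was 3 peaks, with exact permutation p = 0.0556, the smallest that 36 relabellings allow, and adjusted p = 1. For Mesp1 it was 3.5 peaks (exact permutation p = 0.278, adjusted p = 1). Neither difference passed.

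Summed peak numbers near endothelial, cardiac, blood, pluripotency and endoderm genes were also higher in induced CPC than in uninduced CPC. Those near the 2 sorting receptor genes were not apart, with 5 to 7 in induced CPC and 5 in each uninduced CPC library. Among all 19564 genes, 14.6% had both induced above both uninduced CPC libraries and 3.62% had both below, so such a rise is not particular to markers. Peaks near 6 endothelial genes summed to 23 to 26 in induced CPC and 12 to 17 in uninduced CPC, those near 6 cardiac genes to 36 in each induced and 25 to 32 in uninduced CPC, and those near 4 blood genes to 24 to 25 in induced and 19 to 21 in uninduced CPC. Near 4 pluripotency genes the sums were 14 in each induced CPC library and 10 to 11 in uninduced CPC, and near 4 endoderm genes 10 to 12 in induced and 7 to 9 in uninduced CPC. Over induced and uninduced libraries together, some defining markers had a CPC library with 0 peaks (Fli1, Tek, Nkx2-5, Zfp42, Ttr and Afp). Of these, Zfp42, Ttr and Afp also had an EPC library with 0 peaks. The part of the marker differences in the Mesp1 result was not tested. In these bulk lists, a site open in more cells and a site more open in the same cells cannot be told apart.

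At Eomes the promoter peak was weak or missing in uninduced CPC. The region at chr9:118477386-118479791, which covers the start of the gene, scored 367 and 334 in induced CPC. In uninduced CPC it scored 58.5 in replicate 1, with a peak that began inside the gene, and had no peak in replicate 2. It scored 545 and 526 in induced EPC, 360.03 in uninduced EPC 1, and had 2 peaks of 72.95 and 131 in uninduced EPC 2. Within its own list, the peak ranked above 76.1% of peaks in each induced CPC library, 10.0% in uninduced CPC 1, 81.3% and 80.3% in induced EPC, 70.2% in uninduced EPC 1, and 23.3% and 48.0% for the 2 peaks of uninduced EPC 2. The ranks thus differed between libraries, but the lists differ in length and their depth is unknown, so a change cannot be inferred from them. The region had a peak in 7 of 8 libraries and so was not called gained. Counting only peaks with a score of 100 or more, or with lists of equal length, it was gained in CPC.

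**Figure D2:**
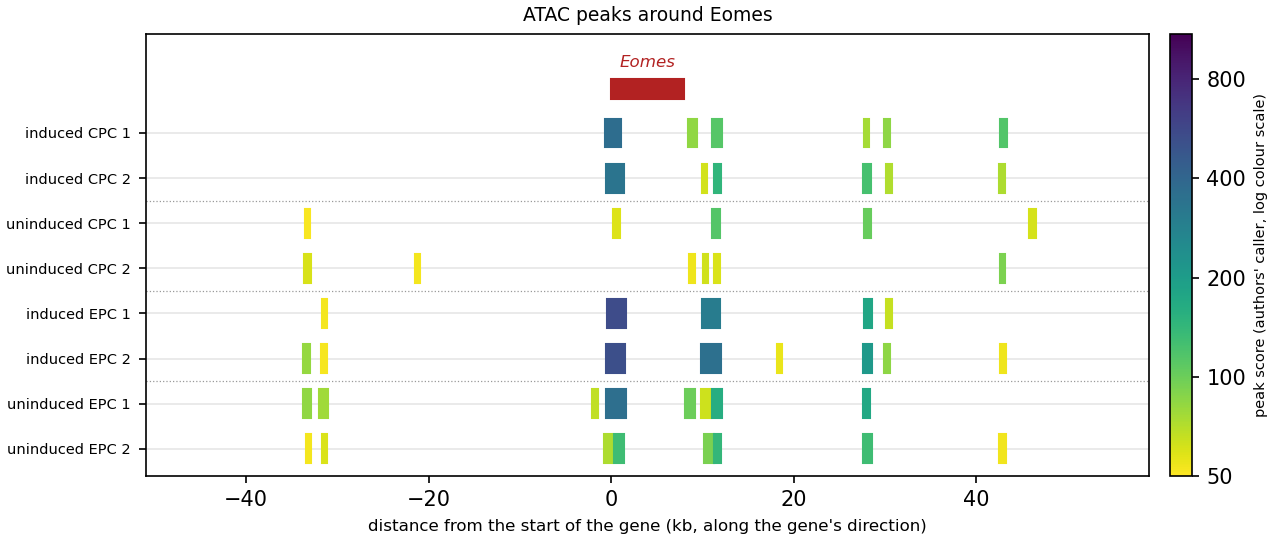
ATAC peaks around Eomes. Each line is a library, each block a peak, the horizontal axis is distance in kb from the start of the gene along its direction, and colour gives the score on a log scale. The block at the gene start is dark in both induced CPC libraries (367 and 334) and pale or missing in uninduced CPC (58.5 and none).

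Downstream of Eomes, a region at chr9:118508057-118508933, 21.9 kb from the gene and nearest to Golga4, was gained in both cell types. It scored 84.8 and 72.4 in induced CPC and 65.4 and 84.9 in induced EPC, with no peak in the 4 uninduced libraries. All 4 scores lay below the median scores of the induced lists, which were 138 to 151. The region is in the authors' deposited lists of intervals found with doxycycline only, for both CPC and EPC. It was not called when only scores of 100 or more counted, and with lists of equal length it was gained in CPC alone. Of all ATAC regions, 593 (1.16%) were gained in both cell types.

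The other regions of the Eomes window followed no common pattern. At 1.91 kb downstream, chr9:118488040-118490289 was open in all 8 libraries, with a highest peak per library of 113 and 146 in induced CPC, 114 and 62.3 in uninduced CPC, 304 and 355 in induced EPC, and 159 and 142 in uninduced EPC. A region 19.6 kb downstream had a peak in 7 libraries (75.8 and 124 in induced CPC, 103 and none in uninduced CPC, 176 and 209 in induced EPC, 172 and 130.15 in uninduced EPC). Only uninduced CPC 2 lacked the region 19.6 kb downstream.

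Upstream of Eomes lay 2 neighbouring regions with low scores. At 32.9 kb, chr9:118444419-118445335 was lost in CPC, with no peak in induced CPC and 51.4 and 60.4 in uninduced CPC, while EPC had 81.2 in induced EPC 2 and 83.5 and 53.0 in uninduced EPC. At 31.0 kb, chr9:118446188-118447159 was found in all 4 EPC libraries and in no CPC library, with 52.6 and 52.4 in induced EPC and 77.5 and 59.5 in uninduced EPC. The scores of both regions, 51.4 to 83.5, stand near the low end of the lists, and neither call held with scores of 100 or more or with lists of equal length. The rest of the window held a region 34.5 kb downstream in 5 libraries, a region 0.155 kb downstream in 3, and 4 regions in 1 library each with scores of 52.7 to 67.3.

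The number of peaks in the Eomes window was 6 and 6 in induced CPC, 5 and 6 in uninduced CPC, 5 and 8 in induced EPC, and 8 and 8 in uninduced EPC. The groups overlapped in both cell types. Over both cell types the induced libraries averaged 6.25 ± 1.26 and the uninduced libraries 6.75 ± 1.5 (SD, n = 4 each), a difference of -0.5 peaks (exact permutation p = 1, adjusted p = 1). CPC had 5.75 ± 0.5 and EPC 7.25 ± 1.5 (SD, n = 4 each), a difference of -1.5 peaks (exact permutation p = 0.167, adjusted p = 0.804). That was the lowest adjusted p of the 5 genes, and it did not pass. The CPC minus EPC difference was -2.25 without induced EPC 1, -0.75 without induced EPC 2 and -0.5 within 10 kb. Induced minus uninduced was 0.25 without induced EPC 1, -1.25 without induced EPC 2 and 0.75 with scores of 100 or more.

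Around Tbx6 chromatin was open in every library, mostly at its neighbours. The region next to the gene, chr7:126779628-126781349, ends 134 bp before the gene boundary and scored 65.6 and 125 in induced CPC, 89.0 and none in uninduced CPC, 115 and 272 in induced EPC, and 382 and 122 in uninduced EPC. Only uninduced CPC 2 lacked it. The 6 constant regions included those over the promoters of Ypel3, Ppp4c and Aldoa. The region over Aldoa, a glycolytic enzyme gene, had scores of 417 to 1018 and was the highest-scoring region near the 5 genes in every library.

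A single region near Tbx6 met a call. At 36.1 kb downstream, inside Tlcd3b, chr7:126821652-126822637 was gained in EPC, with 129 and 72.2 in induced EPC and no peak in uninduced EPC. In CPC it scored 67.5 and 106 in induced libraries and 67.2 in uninduced CPC 2. The call did not hold with scores of 100 or more or with lists of equal length. It is in the authors' deposited list of intervals found in EPC with doxycycline only, which holds 3267 intervals, 2 of them near the 5 genes.

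Tbx6 had 9 and 11 peaks in its window in induced CPC, 8 and 8 in uninduced CPC, 9 and 9 in induced EPC, and 10 and 9 in uninduced EPC. The groups did not overlap in CPC and touched in EPC. The overall difference was 0.75 peaks (9.5 ± 1 in induced and 8.75 ± 0.957 in uninduced ones, SD, n = 4 each, exact permutation p = 0.667, adjusted p = 1). With every ATAC list reduced to the length of the shortest, it was -0.75 peaks, so its direction changed with list length. It was 1.25 without induced CPC 1, 0.25 without induced CPC 2 and 0.25 within 10 kb.

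Mixl1 had the least open chromatin of the 5 genes. A region across its higher-coordinate boundary, chr1:180696600-180697532, had a peak in induced CPC 2 at 89.5 and in uninduced EPC 1 at 53.4. A region 12.2 kb away had a peak in induced EPC 2 alone, at 59.5. The constant region, chr1:180725392-180726692, lies 28.4 kb from Mixl1 and is nearest to Acbd3. It scored 211 and 191 in induced CPC, 267 and 134 in uninduced CPC, 299 and 371 in induced EPC, and 387 and 232 in uninduced EPC and so was open in every group. The Mixl1 window held 1 or 2 peaks in every library (1.5 ± 0.577 in induced and 1.25 ± 0.5 in uninduced ones, SD, n = 4 each, exact permutation p = 1, adjusted p = 1).

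**Figure D3:**
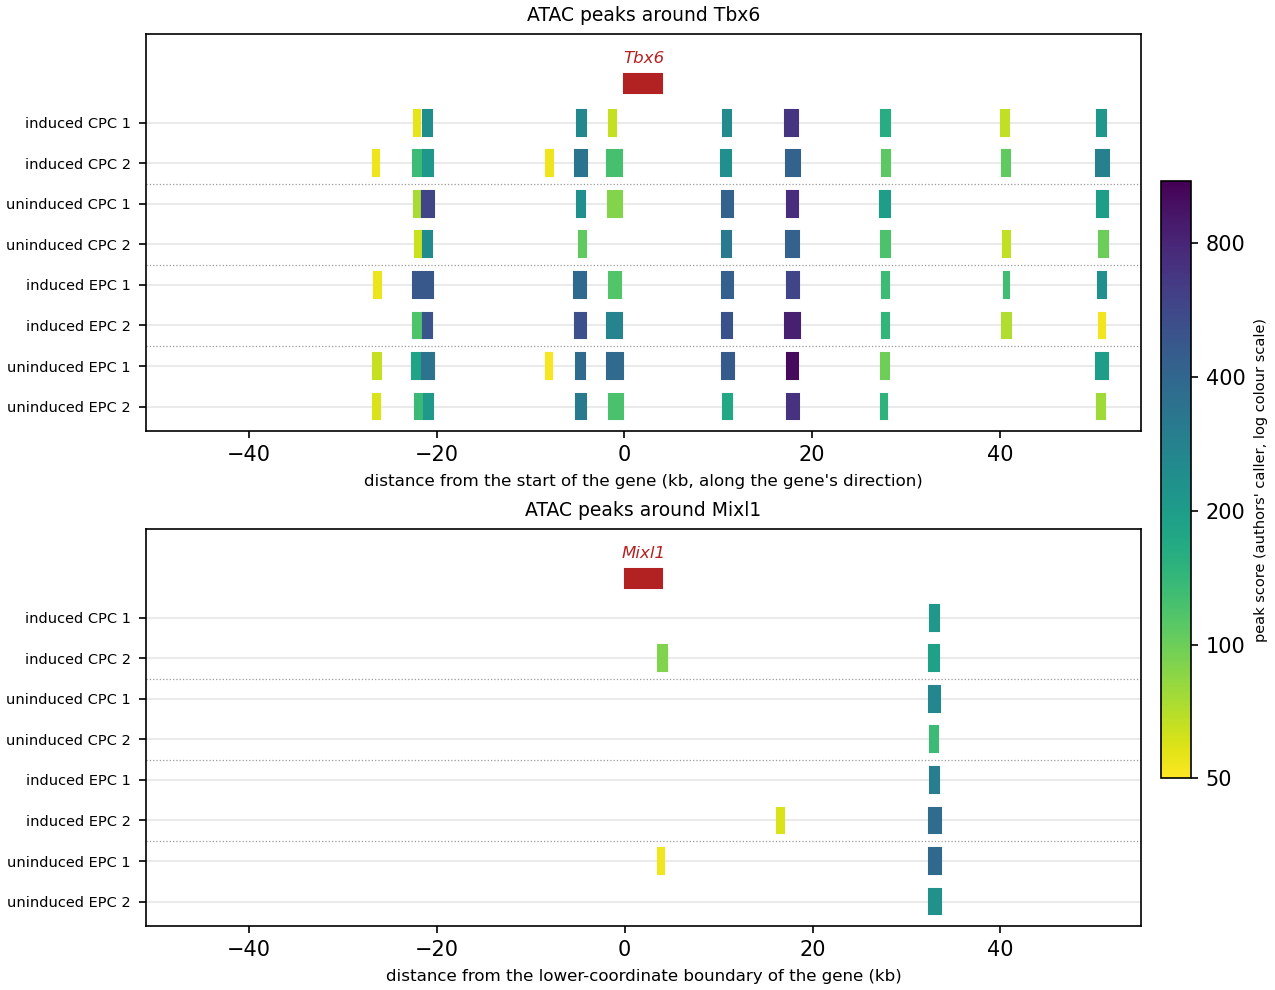
ATAC peaks around Tbx6 (upper panel) and Mixl1 (lower panel). Each line is a library, each block a peak, and the horizontal axis is distance in kb from the gene start for Tbx6 and from the lower-coordinate boundary for Mixl1. Colour gives the score on a log scale. Tbx6 has 8 to 11 peaks in every library and Mixl1 has 1 or 2.

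Compared side by side, the windows of 3 of 5 genes (Mesp1, Mesp2 and Tbx6) had both induced libraries above both uninduced libraries in CPC, where 14.6% of 19564 genes did. None of the 5 had the reverse, where 3.62% did. The windows of Mesp1 and Mesp2 share 6 of their 9 regions, so these 2 genes are not separate observations. At Tbx6 the difference over both cell types was -0.75 peaks with lists of equal length. In EPC 0 of 5 had both induced libraries above (14.9% of all genes) and 0 of 5 below (3.26%). None was separated the same way in both cell types, where 3.81% of all genes were higher and 0.184% lower. CPC and EPC libraries did not separate in both doxycycline states at any of the 5 (2.2% of genes higher and 5.11% lower in CPC).

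**Figure D4:**
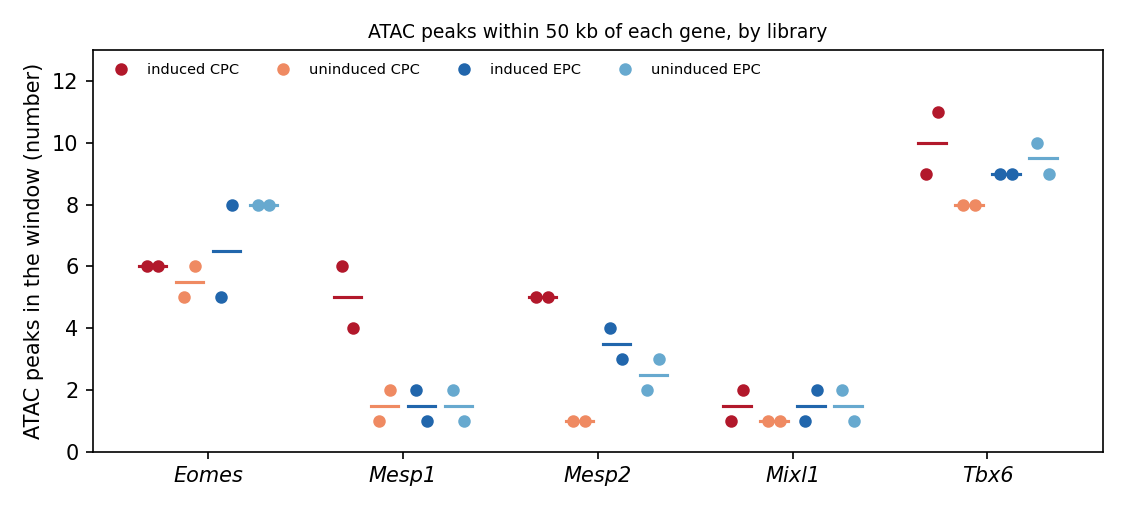
Number of ATAC peaks within 50 kb of each gene. Points are libraries, short bars are the means of 2 libraries, and colours give the 4 groups. In CPC the induced points stand above the uninduced points at Mesp1, Mesp2 and Tbx6, while in EPC they overlap or touch at all 5 genes.

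Each peak counted once, the 5 windows together held 22 and 24 peaks in induced CPC, 15 and 17 in uninduced CPC, 19 and 22 in induced EPC, and 22 and 21 in uninduced EPC. As the lists differed in length, the same numbers per 10000 peaks of the list were 7.51 and 8.58 in induced CPC, 5.45 and 7.37 in uninduced CPC, 6.57 and 7.16 in induced EPC, and 7.88 and 8.86 in uninduced EPC. Induced CPC stayed above uninduced CPC by a small margin, and induced EPC stood below uninduced EPC.

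By region calls, 3 of 34 regions were gained in CPC (8.82%, against 5.75% of all ATAC regions) and 1 was lost in CPC (2.94%, against 2.35%). In EPC 2 were gained (5.88%, against 6.12%) and none was lost (1.82% of all regions). None was CPC-only, with a peak in all 4 CPC and no EPC library (1.8% of all), and 1 was EPC-only (2.94%, against 2.1%). Each share near the 5 genes rests on 0 to 3 regions. For windows as a whole, 0 of 19564 genes passed an adjusted p of 0.05 in the induced against uninduced test, the CPC against EPC test or the test of their difference. None had an unadjusted p under 0.05, since the smallest possible is 0.0556.

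CPC minus EPC differences for the other genes were 1.75 peaks at Mesp1 (3.25 ± 2.22 in CPC and 1.5 ± 0.577 in EPC, SD, n = 4 each, exact permutation p = 0.278, adjusted p = 1), 0 at Mesp2, and -0.25 at each of Mixl1 and Tbx6. The last 3 each had exact permutation p = 1 and adjusted p = 1. The median over all genes was -0.25. Within 100 kb the difference at Mesp1 was -0.75.

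Of the 5 windows, only that of Tbx6 held an anti-Myc ChIP peak, and over all 21887 genes 5663 windows held one. The lists held 1 peak in induced replicate 3 and 0 peaks in induced replicates 1, 2 and 4, in the 4 uninduced lists and in the input. The peak, chr7:126789062-126790146, lies 3.51 kb downstream of Tbx6, inside Ppp4c, and scored 53.5, where that list starts at 40 and is the longest of the ChIP lists. A region was called an induced ChIP site when 3 or 4 induced libraries and no uninduced library had a peak. The 1 ChIP region near the 5 genes was no such site, and of all 4548 ChIP regions 5.17% were. The ChIP peaks per window of Tbx6 differed by 0.25 (exact permutation p = 1, adjusted p = 1 over 5663 genes, smallest possible p 0.0571), and its groups overlapped, while 2.51% of those genes had every induced library above and 0.0177% below every uninduced one. No gene passed, and none had an unadjusted p under 0.05. The authors' deposited lists of Sox7 sites with doxycycline (666 intervals) and of Sox7 with Gata4 (117 intervals) had 0 intervals near the 5 genes.

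The wider circuit of the same stages was described with 51 related genes, of which 48 had an assigned ATAC region, 226 regions in all. Of these, 17 regions were gained in CPC (7.52%, against 5.75% of all ATAC regions), 8 lost in CPC (3.54%, against 2.35%), 12 gained in EPC (5.31%, against 6.12%) and 6 lost in EPC (2.65%, against 1.82%). CPC-only regions numbered 6 (2.65%, against 1.8%) and EPC-only regions 5 (2.21%, against 2.1%). Counted by gene, a gained CPC region was assigned to 11 of 48 genes (22.9%, against 11.6% of all genes with a region), a lost CPC region to 5 (10.4%, against 5.19%), a gained EPC region to 8 (16.7%, against 12.4%) and a lost EPC region to 6 (12.5%, against 4.32%). CPC-only and EPC-only regions were assigned to 4 genes each (8.33%, against 3.55% for CPC-only and 4.75% for EPC-only). By gene the list thus lay above all genes in each of these ATAC calls, gained and lost alike, and no test was made. By region it lay below all regions for gains in EPC and close to them for EPC-only regions. A gene with more assigned regions more easily holds a called one, and the shares by gene were not adjusted for this. The 13 signal genes had no gained CPC region, although the Wnt effector gene Tcf7l1 had 2 lost in CPC and 2 gained in EPC, and Smad3, a transducer of Nodal signals, had 2 lost in CPC. Foxh1, a partner of those transducers, had a lost EPC region, Smad2 a gained EPC region, and Lef1 and Smad3 had CPC-only regions.

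Of the other streak factors, Evx1, Foxa2 and Sp8 each had regions gained in CPC and in EPC, and Gsc had a region lost in EPC. Among segmentation and somite genes, Lfng, Ripply2, Foxc1, Pax3 and Epha4 had gained CPC regions, and Lfng also a gained EPC region. Ripply2, a repressor that acts with Tbx6 and Mesp2 at segment borders in the mouse, had its gained CPC region inside the gene at chr9:87014982-87016189. Ripply1 had a region lost in CPC, Foxc1 CPC-only regions, and Ripply2 and Tcf15 EPC-only regions. Hes7, a segmentation clock gene, held the only induced ChIP site of the list, at chr11:69123949-69125638 inside the gene. By gene this was 1 of 9 related genes with an assigned ChIP region (11.1%, against 6.62% of all such genes). By region it was 1 of 11 (9.09%, against 5.17% of all ChIP regions).

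Of the genes known to act after Mesp1, the cardiac factor genes Hand2 and Isl1, and Rasgrp3, had gained CPC regions, and Isl1 and Myocd had gained EPC regions. Gata4 and Smarcd3 had regions lost in CPC, and Hand1, Gata4, Mef2c and Foxf1 regions lost in EPC. Hand2 had a CPC-only region 0.462 kb from the gene, and Mef2c and Rasgrp3 had EPC-only regions. Gains in CPC thus occurred beside 0 of 13 signal genes, 3 of 13 other streak factors, 5 of 12 segmentation genes and 3 of 13 genes after Mesp1, where 11.6% of all genes with a region had one. These counts only describe the lists.

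**Figure D5:**
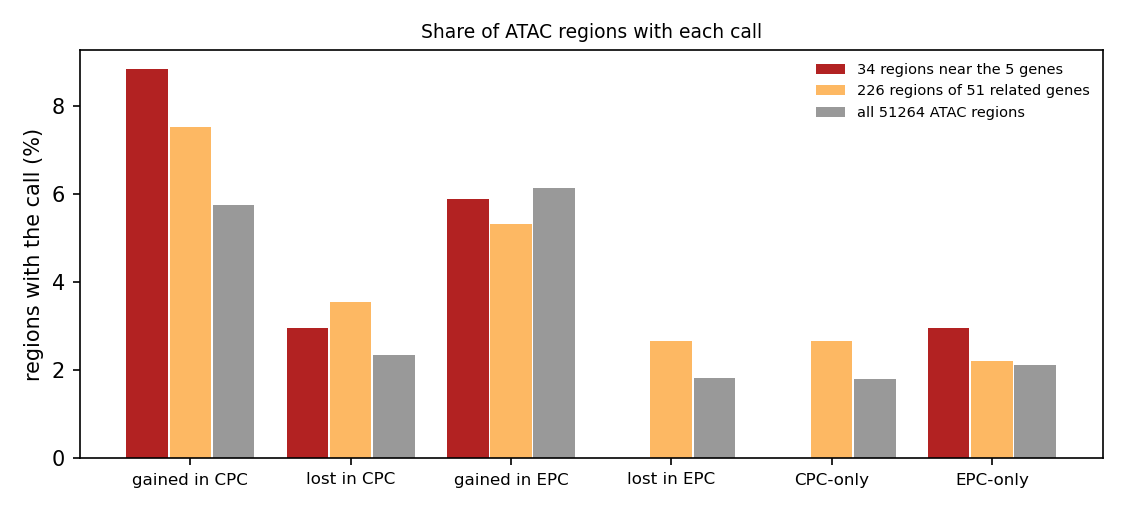
Share of ATAC regions with each call, in percent, for the 34 regions within 50 kb of the 5 genes, the 226 regions assigned to 51 related genes and all 51264 regions. Bars start at 0 and have no error bars, since each is a count over regions. The 5 genes have no region lost in EPC and none that is CPC-only, and 8.82% of their regions were gained in CPC.

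Genes with a like profile were sought by Pearson's r of peak numbers over the 8 ATAC libraries. List length differs between the libraries and acts on every gene at once, so these values are descriptions. Tbx6 was most like Plekhj1 (r = 0.97), then Csmd1 and Kash5 (0.95 each). Mesp2 was most like Twist1, Ferd3l and LOC115488130 (0.96 each), and Twist1 and Ferd3l are neighbours whose windows overlap. Mesp1 was most like Cd101, Cep162 and Gpr149 (0.96 each), but 17 genes reached this r. Eomes was most like Ppip5k1, Dnaaf3 and Daglb (0.95 each), a value 32 genes reached, and Mixl1 had the same pattern as Adgrf3, Bcl2a1a and Cmah (r = 1), as did 16 genes in all.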

How the data were processed

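The samples were 8 ATAC-seq, 8 anti-Myc ChIP-seq and 1 input library, with 4 RNA-seq samples not analysed here. Each deposited peak list gives positions and a score from the authors' peak caller. Per the submitters' processing notes, the tools named include Bowtie2, SAMtools, bedtools and MACS 1.4, with build GRCm38 (mm10), and their roles are not given there. The score follows the MACS 1.4 format, and was used to describe, rank or filter peaks within a list. Scores of different libraries stand side by side as descriptions, and a larger one is not read as a change. The deposited files hold no read counts, so depth and precision per library are unknown. The growth protocol names a PDGFRα+FLK1− sort, unlike the characteristics of the ATAC samples, from which groups were taken.

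Peaks of an assay overlapping by 1 bp were merged into regions. A region was assigned to each protein-coding gene body it overlapped, or else to the nearest gene within 50 kb. Promoter strand and sequence came from RefSeq (GRCm38.p6). Peaks per window were compared by exact permutation tests (two-sided, the smaller tail doubled) within cell type or doxycycline state, with Benjamini-Hochberg adjustment over all genes with a peak. Calls per region carry no p-value. The test was checked on simulated peak numbers, drawn with no difference in list length between libraries. Changes were planted only in genes with more peaks per window than Mesp1, Mesp2 or Mixl1 had, so the check does not cover these genes. Python 3.11.15, numpy 2.4.6, pandas 2.3.3 and scipy 1.17.1 were used.

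All 5 genes are named, as are related genes with a called region and, for each of the 5, the 3 genes with the highest Pearson's r (ties broken by total peak number, then name). The genes, lists and rules were chosen with earlier results of these data known. The labels do not state that replicates were grown as separate cultures, so each p-value refers to the spread between these samples alone, possibly a technical one. Alternatives were a score of 100 or more, windows of 10 and 100 kb, lists of equal length, merging at 50% overlap, nearest gene only, all 4 uninduced ChIP lists, a replicate block and each library left out.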

Additional observations from a re-analysis of the deposited data

Results flagged for a closer look

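The number of ChIP peaks in the Tbx6 window stood apart in induced replicate 3, with 1 peak against 0 in the other 3 induced libraries. With values of 0 and 1 only, the gap of that library to the others equals the whole range of the group. The criterion behind this is set for values on a continuous scale, where chance meets it in about 1 in 20 groups, while any group with a peak in 1 of 4 lists meets it. The peak scored 53.5, and the list it comes from held 2807 peaks, against 1061 to 1851 in the other induced lists. The part of list length in this peak was not tested.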

How the results depend on the processing

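Both gained CPC regions beside Mesp1 were called under all alternatives run that call regions. Near the 5 genes, 3 regions were gained in CPC, 1 was lost in CPC, 2 were gained in EPC, 0 lost in EPC, 0 CPC-only and 1 EPC-only. With scores of 100 or more, 0 were lost in CPC, 1 was gained in EPC (the Anpep region 44.8 kb from Mesp2, neither of the 2 reported) and 0 were EPC-only, and the Eomes promoter counted as gained in CPC in place of the downstream Eomes region. Within 10 kb, 0 were lost in CPC, 0 gained in EPC and 0 EPC-only, and within 100 kb 3 were EPC-only. With lists of equal length, 0 were lost in CPC, 0 gained in EPC, 1 lost in EPC, 1 CPC-only and 0 EPC-only, and 4 gained in CPC included the Eomes promoter. Counting only regions nearest to one of the genes left 0 gained in EPC.

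Leaving out each library relaxed the rules and gave 3 to 8 regions gained in CPC (8 without induced CPC 1, 5 without induced CPC 2, 6 without uninduced CPC 1 and 5 without uninduced CPC 2), 2 to 5 gained in EPC (4 without induced EPC 1, 5 without uninduced EPC 2), 1 to 2 lost in CPC (2 without either uninduced CPC library), 0 to 5 lost in EPC (1 without either induced EPC library, 5 without uninduced EPC 2), 0 to 1 CPC-only and 1 to 2 EPC-only (1 and 2 without uninduced EPC 1). Induced ChIP sites stayed at 0.

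Of 141 alternative values for single genes, 7 changed direction and 0 reached an adjusted p under 0.05 (lowest 0.795). Induced minus uninduced at Eomes ran from -1.25 to 0.25 over libraries left out, and at Tbx6 from 0.25 to 1.25. CPC minus EPC at Eomes ran from -2.25 to -0.75. Induced minus uninduced became 0.75 at Eomes with scores of 100 or more, 0.25 at Eomes without induced EPC 1 and -0.75 at Tbx6 with lists of equal length. CPC minus EPC became -0.75 at Mesp1 within 100 kb, 0.25 at Mixl1 within 100 kb and with lists of equal length, and 0.25 at Tbx6 without induced CPC 1. The cause was not tested. With a replicate block 0 genes passed. Same-numbered libraries did not deviate together (correlations of -0.0975 to 0.059), which does not exclude that they were paired. With 4 uninduced ChIP lists 0 genes passed and 139 had an unadjusted p under 0.05.

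Depth is unknown, so an absent peak near these genes, where 42.0% of ATAC peaks scored below 100, gives no upper limit on accessibility. An exact permutation test of a single region over the 8 ATAC libraries could not go below p = 0.0556, so regions carry calls only. For a gained or lost call, which compares only 2 with 2 libraries of a cell type, the smallest possible p would be higher still.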

Other observations

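Outside the comparisons, the Mesp2 window also held regions at Anpep, which encodes the surface aminopeptidase CD13. The region at chr7:79858240-79859473, 44.8 kb downstream of Mesp2, scored 170.15 and 252 in induced EPC, and in uninduced EPC 71.6 in replicate 2 with no peak in replicate 1. It had no peak in any of the 4 CPC libraries. The region over the Anpep promoter, chr7:79847912-79848609, scored 70.7 in induced CPC 2, 50.3 and 67.45 in induced EPC, and 52.2 in uninduced EPC 2, with no peak in uninduced CPC. Neither met a call as reported, but the region 44.8 kb away was gained in EPC when only scores of 100 or more counted.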
